A study of Mus musculus with 3 samples.

Results

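Reactive astrocyte genes are genes that astrocytes are known to express more strongly after injury to the brain, and 9 of them, Gfap, Vim, Cd44, Timp1, Osmr, Steap4, S1pr3, Cryab and Stat3, were followed here in single cells after a transient ischemic attack (TIA). They were chosen by symbol, as 9 of the 32285 genes in the count tables, and were measured in 2329 astrocytes out of 10024 cells that passed the cell filter, from 11928 cells in all. The cells came from the brains of WT C57BL6J mice, which were young adults by the study's methods and males by a legend of the study. A naive group had no operation, and the other groups were taken 24 h and 3 d after occlusion of the middle cerebral artery for 5 min; in their labels the treatment is called stroke, and the study calls it TIA. The label and a legend of the study call the comparison group naive, while another legend calls it sham. No library is labeled as sham-operated, so effects of anesthesia and surgery cannot be told apart from those of the occlusion. For 10x Genomics sequencing of transcript 3′ ends, living cells were sorted after papain treatment and a step against dead cells. The hemisphere tissue was used without its white matter and meninges. Each group was a pool of cells from 3 mice, from which a single library was made, so that the mice of a group cannot be told apart. A difference between groups is therefore also a difference between libraries, no test across groups was possible, and all intervals given here cover counting error only.

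When astrocytes react to injury, they enlarge their cytoskeleton of intermediate filaments, alter what they secrete and respond more strongly to cytokines. Much of this response is known to run through cytokines of the interleukin-6 family, whose receptors share the chain gp130 (Il6st) and activate JAK kinases, which phosphorylate the transcription factor STAT3; STAT3 then enters the nucleus and switches on target genes such as Gfap and its own feedback inhibitor Socs3. Most of these genes are not particular to astrocytes, since cells of the vessel wall, oligodendrocytes and immune cells use several of them in health.

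The naive library held 4804 cells and 37987228 unique molecular identifiers (UMIs, each standing for 1 captured transcript), the 24 h library 1619 cells and 12919691 UMIs, and the 3 d library 5505 cells and 48636436 UMIs. More than 7% of UMIs were mitochondrial in 567 of the naive cells (11.8%), 340 of the 24 h cells (21%) and 627 of the 3 d cells (11.4%), and these cells were left out, as were cells with fewer than 500 genes. The 24 h library thus stood apart from the others by its small size and its larger share of such cells. It also held more vessel cells. Of the cells that passed the filter, pericytes made up 3.98%, 14.9% and 6.84% in the naive, 24 h and 3 d library. Endothelial cells made up 7.14%, 18.7% and 12.3%. Libraries shared few cell barcodes, 3 between naive and 24 h, 8 between naive and 3 d and 4 between 24 h and 3 d.

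Astrocytes were the cells of 2 clusters that were named from 15 astrocyte markers, none of which is a member of the set, and the clusters were made without the members. All 15 markers were detected in both clusters above the other cells. The glutamate transporter gene Slc1a2 was detected in 99.9% of these astrocytes and 41.7% of the other cells, the water channel gene Aqp4 in 91.7% and 8.24%, and Aldh1l1 in 74.3% and 4.95%. There were 806 astrocytes in the naive library, 219 at 24 h and 1304 at 3 d, with 8246723, 2652139 and 13195402 UMIs in sum. Their median depth was 9661 UMIs per cell in the naive library, 11738 at 24 h and 9516.5 at 3 d. Cluster 1 held 48.6% of the naive astrocytes, 62.1% at 24 h and 59.97% at 3 d, and cluster 4 held the rest, so that most naive astrocytes were in cluster 4 and most of those after TIA in cluster 1. UMIs of each gene were summed over the astrocytes of a library and divided by all their UMIs, which was scaled to counts per 1000000 UMIs (CPM).

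At 24 h after TIA, Osmr, Gfap, Vim and, less firmly, Cryab were at least 2-fold higher in astrocytes than in the naive library, and at 3 d no member was past that limit. Summed over the 9 members, the level in astrocytes was 205 CPM in the naive library, 536 CPM at 24 h and 220 CPM at 3 d. A gene was counted when both libraries together held at least 30 UMIs and its CPM differed at least 2-fold, which left out Timp1 and Steap4 for their few UMIs. At 24 h, 4 of the 7 members with enough UMIs were higher and 0 were lower, while of all 12494 genes with enough UMIs 3.04% were higher and 6.54% lower. Those 4 were Gfap, Vim, Osmr and Cryab, and Stat3 and Cd44 lay just under the limit. At 3 d, 0 of 7 members were higher and 0 were lower, beside 1.53% higher and 1.14% lower of 13805 genes. The median log2 ratio of the members to the naive library was 1.03 at 24 h, where that of all genes was 0.01, and -0.14 at 3 d, where that of all genes was 0.04. Both comparisons share the naive library.

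**Figure D1:**
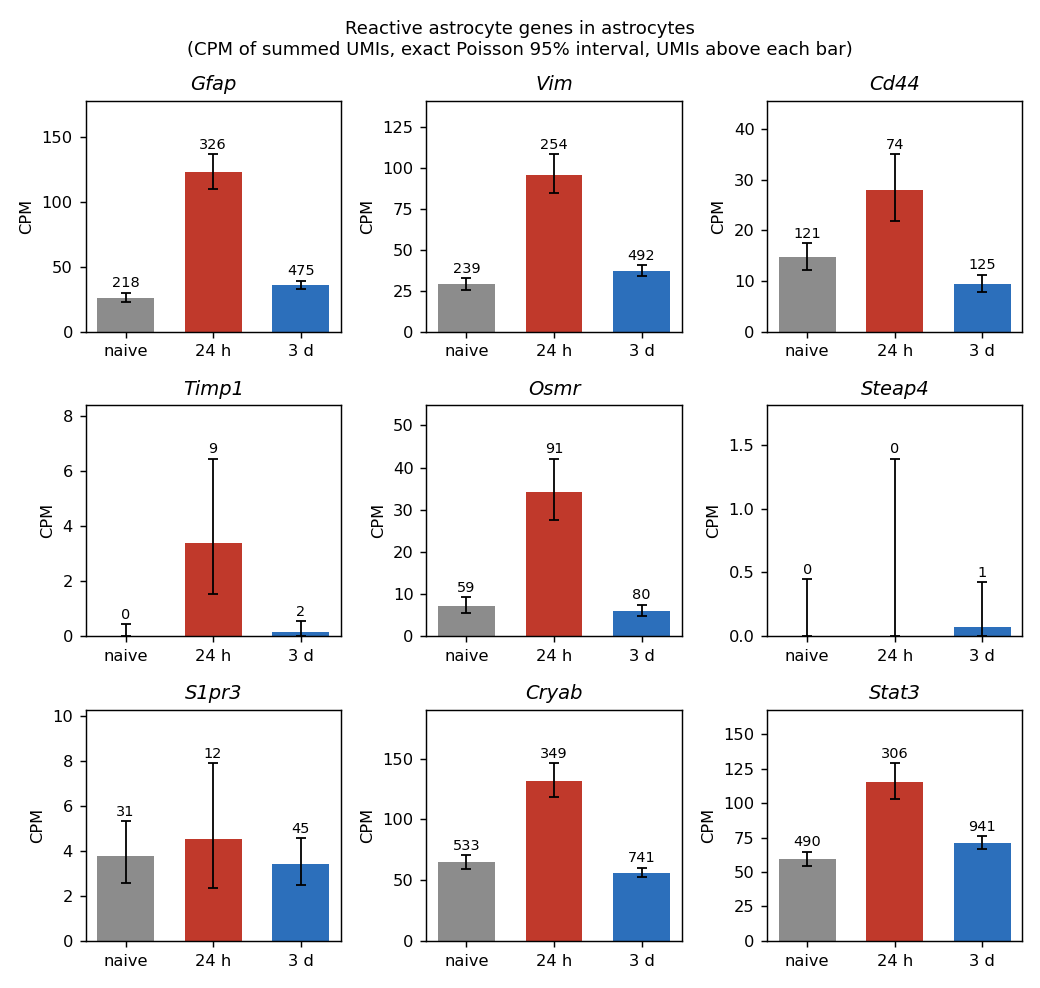
Level of each member in the astrocytes of each library. Bars give CPM of the UMIs summed over astrocytes, lines the exact Poisson 95% interval and numbers the UMIs; each gene has its own scale from 0. At 24 h, Gfap reached 123 CPM and Osmr 34.3 CPM, against 26.4 and 7.15 CPM in the naive library, while Steap4 had 0, 0 and 1 UMIs.

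Osmr encodes the receptor chain that binds oncostatin M and pairs with gp130. In astrocytes it was at 7.15 CPM in the naive library (59 UMIs, 95% Poisson interval 5.45 to 9.23), 34.3 CPM at 24 h (91 UMIs, 27.6 to 42.1) and 6.06 CPM at 3 d (80 UMIs, 4.81 to 7.55). The 24 h library thus stood alone, with an interval far above those of the other libraries, which overlapped. Its log2 ratio at 24 h was 2.26 (95% interval 1.77 to 2.76), a 4.80-fold higher level, and at 3 d -0.24 (-0.74 to 0.27). S1pr3, a receptor for the lipid mediator sphingosine-1-phosphate, was at 3.76 CPM in the naive library (31 UMIs), 4.52 CPM at 24 h (12 UMIs) and 3.41 CPM at 3 d (45 UMIs). The intervals of all 3 libraries overlapped, and with log2 ratios of 0.27 (-0.83 to 1.27) and -0.14 (-0.83 to 0.57) no difference was detectable at this depth. Cd44, a receptor at the cell surface for the matrix polymer hyaluronan, was at 14.7 CPM in the naive library (121 UMIs, 12.2 to 17.5), 27.9 CPM at 24 h (74 UMIs, 21.9 to 35.0) and 9.47 CPM at 3 d (125 UMIs, 7.89 to 11.3). It was the member whose ratio pointed in opposite directions most clearly at the 2 times, with log2 ratios of 0.93 (0.49 to 1.36) and -0.63 (-1.004 to -0.26), both under the 2-fold limit. Of the receptors, only Osmr passed that limit.

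Stat3, the transcription factor downstream of the interleukin-6 family receptors, was at 59.4 CPM in naive astrocytes (490 UMIs, 54.3 to 64.9), 115 CPM at 24 h (306 UMIs, 103 to 129) and 71.3 CPM at 3 d (941 UMIs, 66.8 to 76.0). None of the 3 intervals overlapped, and the naive library was lowest. The log2 ratio was 0.96 at 24 h (0.75 to 1.17), a 1.94-fold higher level just short of the limit, and 0.26 at 3 d (0.10 to 0.42). These are transcript levels, and phosphorylation of the protein, which sets its activity, was not measured.

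Gfap and Vim encode glial fibrillary acidic protein and vimentin, the intermediate filament proteins that build up in reactive astrocytes. Gfap was at 26.4 CPM in naive astrocytes (218 UMIs, 23.04 to 30.2), 123 CPM at 24 h (326 UMIs, 110 to 137) and 36.0 CPM at 3 d (475 UMIs, 32.8 to 39.4). It was thus 4.65-fold higher at 24 h (log2 ratio 2.22, 1.97 to 2.47). At 3 d it was 1.36-fold above the naive library, with a ratio of 0.45 (0.21 to 0.68) whose interval was above 0 but which was under the limit. Vim was at 29.0 CPM in naive astrocytes (239 UMIs, 25.4 to 32.9), 95.8 CPM at 24 h (254 UMIs, 84.4 to 108) and 37.3 CPM at 3 d (492 UMIs, 34.1 to 40.7). It followed the same course as Gfap, 3.30-fold higher at 24 h with a log2 ratio of 1.72 (1.46 to 1.99), and with a log2 ratio of 0.36 (0.14 to 0.59) at 3 d.

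The remaining members are a secreted inhibitor, a metalloreductase and a chaperone. Timp1, an inhibitor of matrix metalloproteinases, had 0 UMIs in the naive astrocytes, where the limit for a count of 0, set at 3 UMIs, is 0.364 CPM, 9 UMIs at 24 h (3.39 CPM, 1.55 to 6.44) and 2 UMIs at 3 d (0.152 CPM). Against that floor the 24 h level was 9.33-fold higher (log2 3.22, with a lower limit for counting error of 2.62), but it rested on 6 of 219 astrocytes. Steap4, which reduces iron and copper at membranes, had 0, 0 and 1 UMIs in the naive, 24 h and 3 d astrocytes, and was not detectable at this depth at 24 h, where the same limit for a count of 0 is 1.13 CPM. Cryab, which encodes the small heat shock protein αB-crystallin that keeps damaged proteins and filaments soluble, was at 64.6 CPM in naive astrocytes (533 UMIs, 59.3 to 70.4), 132 CPM at 24 h (349 UMIs, 118 to 146) and 56.2 CPM at 3 d (741 UMIs, 52.2 to 60.3). The level at 24 h was above those of both other libraries, with a log2 ratio of 1.03 (0.83 to 1.22), a 2.04-fold higher level, while at 3 d the ratio was -0.20 (-0.37 to -0.04). The Cryab call at 24 h did not hold in several other settings, as given next.

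A few cells carried much of the 24 h level of some members. The 5 astrocytes with most Cryab UMIs held 45.6% of its UMIs at 24 h, and 83 UMIs came from a single cell, whereas the same number of cells held 5.63% in the naive library and 5.13% at 3 d. The libraries held 806 naive astrocytes, 219 at 24 h and 1304 at 3 d, so 5 cells were a larger part at 24 h. Their shares are therefore not on equal terms, and leaving out 5 cells takes away a larger part of the 24 h astrocytes. Without the 5 highest cells of each library, the log2 ratio of Cryab at 24 h was 0.26. The 5 highest cells held 43.2% of the Cd44 UMIs and 42.9% of the Osmr UMIs at 24 h, where Cd44 without them had a log2 ratio of 0.30 and Osmr one of 1.82. Gfap (26.4% of its UMIs), Vim (19.7%) and Stat3 (14.4%) were spread over more cells. Some other members were also high in the 5 astrocytes with most Cryab at 24 h. Together these 5 cells had 37 UMIs of Vim (447 CPM), 27 of Cd44 (326 CPM), 16 of Stat3 (193 CPM, against 115 CPM in all 24 h astrocytes), 15 of Osmr (181 CPM, against 34.3 CPM), 13 of Gfap (157 CPM, close to the 123 CPM of all 24 h astrocytes) and 5 of the 9 Timp1 UMIs of all 24 h astrocytes. Since Cryab is abundant in oligodendrocytes, their markers were summed in these cells, and reached 60.4 CPM there and 90.7 CPM in the other 24 h astrocytes. Astrocyte markers summed to 20972 CPM in the 5 cells and 25353 CPM in the others.

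The 24 h difference was also present within each astrocyte cluster for Gfap, Vim and Osmr. Gfap had a log2 ratio at 24 h of 2.55 (2.17 to 2.94) in cluster 1, where it was at 18.9, 111 and 31.8 CPM in the naive, 24 h and 3 d library, and of 2.12 (1.76 to 2.48) in cluster 4, where it was at 34.9, 152 and 44.0 CPM. For Vim the ratio was 1.66 in cluster 1 and 1.64 in cluster 4, and for Osmr 2.60 and 1.38. At 24 h, 5 cells held 50.7% of the Osmr UMIs in cluster 1 and 62.5% of the 16 in cluster 4. For Gfap the same shares were 38.0% and 45.5%, and for Vim 24.4% and 44.3%. Cryab and Cd44 had lower ratios in cluster 4. Cryab went from 55.2 CPM in the naive library to 150 CPM at 24 h in cluster 1, a log2 ratio of 1.45 (1.19 to 1.70). In cluster 4 it went from 75.1 to 87.7 CPM, a ratio of 0.22 (-0.17 to 0.60). Cluster 4 held 70 Cryab UMIs at 24 h, so the cell with 83 was in cluster 1, which held 279. Cd44 was at 14.3 and 33.4 CPM in cluster 1, a ratio of 1.23 (0.70 to 1.76), and at 15.1 and 15.0 CPM in cluster 4, a ratio of -0.01 (-1.04 to 0.90). The Cd44 intervals of the clusters overlap, and 51.6% of its 24 h UMIs in cluster 1 were in 5 cells. For Stat3 the ratio was 1.04 in cluster 1 and 0.76 in cluster 4.

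A further cluster, called Agt-led for Agt and Itih3 among its 10 leading genes, held 14 of the 15 astrocyte markers, but was left unnamed because a choroid plexus marker was among its leading genes. It made up 86 cells of the naive library, 19 of the 24 h library and 122 of the 3 d library. Gfap in it was at 17.5 CPM in the naive library (11 UMIs), 108 CPM at 24 h (20 UMIs) and 100.5 CPM at 3 d (91 UMIs). The summed level of Gfap here was thus as high at 3 d as at 24 h, with log2 ratios of 2.63 (1.496 to 3.83) and 2.52 (1.62 to 3.58). It rested on few cells, since 67.0% of the 3 d UMIs were in 5 cells, and without thinning Gfap was detected in 6.98%, 42.1% and 12.3% of the cells, a share that was nearer to the naive one at 3 d. Stat3 in this cluster was at 69.9, 162 and 90.5 CPM, a log2 ratio of 1.21 (0.49 to 1.91) at 24 h, and Cryab at 41.3, 32.4 and 47.5 CPM, without a higher level at 24 h.

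**Figure D2:**
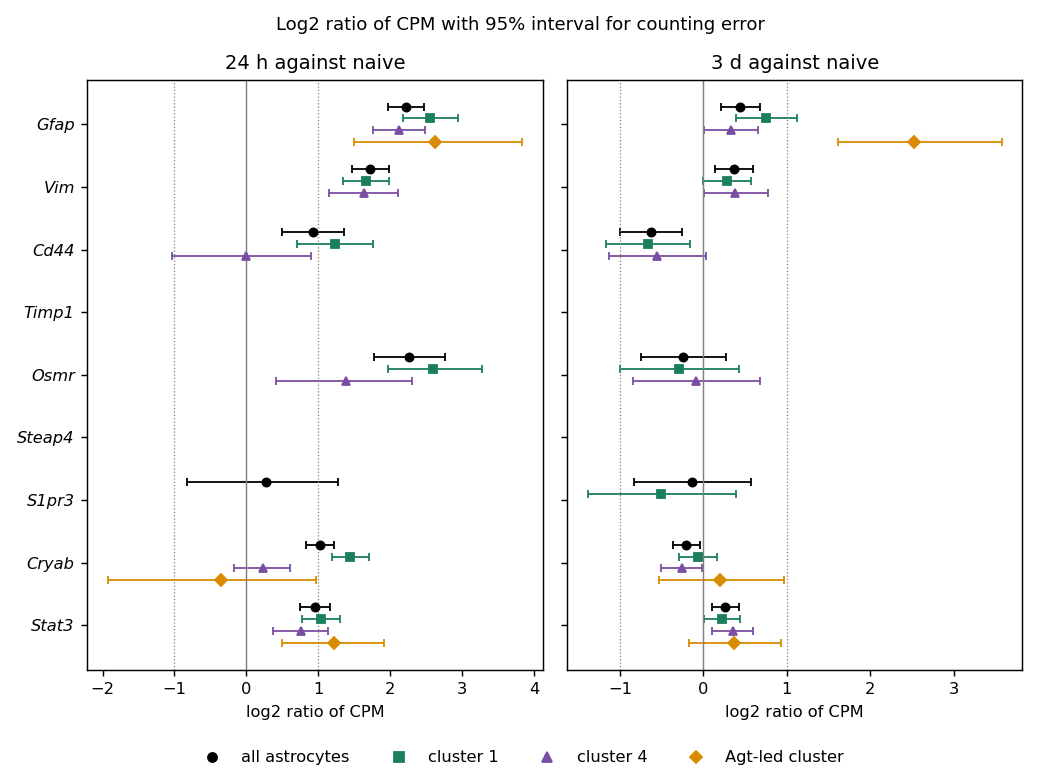
Log2 ratio of CPM at 24 h and at 3 d to the naive library for members with at least 30 UMIs over both libraries, in all astrocytes, in each astrocyte cluster and in the Agt-led cluster. Points are ratios, lines 95% intervals for counting error, and dotted lines mark the 2-fold limit. Gfap at 24 h lies between 2.12 and 2.63 in all 4 sets of cells, while at 3 d it is past the limit in the Agt-led cluster alone, at 2.52.

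Set directly against 24 h, the members were lower at 3 d by ratios that were past the 2-fold limit for 5 of the 7 with enough UMIs, while 0 were higher; of all 13222 genes with enough UMIs, 2.23% were lower and 6.46% higher. The log2 ratio of 3 d to 24 h was -2.50 for Osmr (-2.95 to -2.05), -1.77 for Gfap (-1.98 to -1.56), -1.56 for Cd44 (-1.98 to -1.12), -1.36 for Vim (-1.58 to -1.14) and -1.23 for Cryab (-1.41 to -1.04). Stat3 was at -0.69 (-0.88 to -0.50), and S1pr3 at -0.41, with an interval from -1.35 to 0.65 that holds 0. Without the 5 highest cells of each library, a comparison chosen after the data had been seen, 3 of the 7 were past the limit, Osmr (-1.95), Gfap (-1.60) and Vim (-1.31), while Cd44 (-0.90) and Cryab (-0.46) were short of it. Here too, 5 cells were a larger part of the astrocytes at 24 h than at 3 d. Gfap, Vim and Stat3 thus ended between the naive and the 24 h level, with intervals against naive above 0, Cd44 and Cryab had intervals below 0, all short of the 2-fold limit, and Osmr and S1pr3 could not be told from it.

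The share of astrocytes with a member was compared at equal depth, after each cell was thinned to 3000 UMIs and 20, 15 and 47 shallower astrocytes were left out, which left 786, 204 and 1257. Gfap was then detected in 5.60% of naive astrocytes (95% binomial interval 4.10 to 7.44), 22.5% at 24 h (17.0 to 28.9) and 7.001% at 3 d (5.65 to 8.55). Without thinning, the shares were 17.6%, 40.6% and 18.0%. Most 24 h astrocytes thus had no Gfap UMI at either depth, and after thinning 3 or more UMIs were found in 0, 6 and 8 cells of the naive, 24 h and 3 d library. Vim was detected in 7.38%, 21.6% and 8.83% of astrocytes (18.6%, 42.01% and 23.1% without thinning), and Stat3 in 14.2%, 29.9% and 18.4% (38.6%, 56.6% and 41.0%). For Gfap, Vim and Stat3 the interval at 24 h was above those of both other libraries. Osmr was detected in 2.54%, 6.37% and 1.91% (6.08%, 19.2% and 5.44%), Cd44 in 4.58%, 7.84% and 2.86% (12.8%, 18.7% and 8.44%), and Cryab in 17.6%, 21.1% and 14.2% (42.6%, 51.1% and 38.2%). The shares with Osmr (1.56 to 3.90 and 3.44 to 10.7), Cd44 and Cryab had overlapping intervals in the naive library and at 24 h, in contrast to their summed levels. S1pr3 was found in 0.763%, 1.47% and 0.955% (3.85%, 5.48% and 3.37%) and Timp1 in 0%, 0.490% and 0% (0%, 2.74% and 0.153%). Steap4 was found in 0 of the thinned astrocytes, for which 3 of 204 cells at 24 h, the limit for a count of 0, is a share of 1.47%.

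As a measure of free Gfap RNA, this gene was detected at the same thinned depth in 0.211%, 0% and 0.172% of microglia in the naive, 24 h and 3 d library, a cell type that should lack it, and in 0.309%, 0% and 0.675% without thinning at median depths of 7758, 9327 and 7657 UMIs. These shares were far below those in astrocytes. They do not measure how much RNA of other classes was in astrocytes. At 24 h the same limit for 0 of 252 microglia is 1.19%. In the other classes Gfap was detected in at most 1.25% of the thinned cells.

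The members detected in the same cell were then counted. At equal depth, at least 3 different members were detected in 16 of the 786 naive astrocytes (2.04%, 1.17 to 3.28), in 26 of 204 at 24 h (12.7%, 8.50 to 18.1) and in 21 of 1257 at 3 d (1.67%, 1.04 to 2.54), and no member was detected in 57.9%, 34.8% and 56.3%. If each member were spread over the cells independently of the others, the shares with 3 or more members would be 0.922%, 7.70% and 0.971%. The observed share was above this value in each library, and the cause was not tested. Among the 46 astrocytes with Gfap at 24 h, Vim was found in 32.6% (19.5 to 48.0), against 18.4% (12.7 to 25.3) of the 158 without Gfap. These intervals overlap, as did those for Stat3 (37.0% and 27.8%), Cd44 (13.04% and 6.33%), Osmr (6.52% and 6.33%) and Cryab (15.2% and 22.8%).

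**Figure D3:**
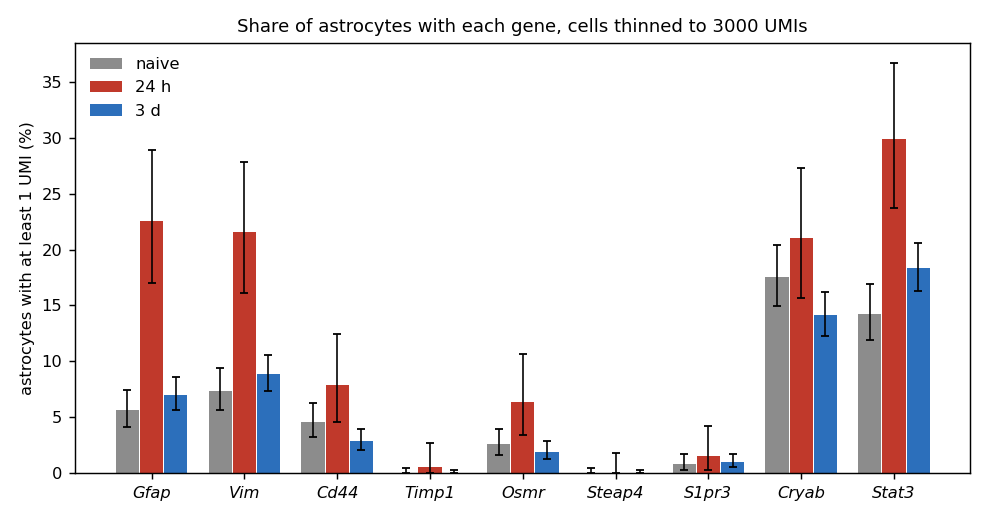
Share of astrocytes with at least 1 UMI of each member after every cell was thinned to 3000 UMIs, with exact binomial 95% intervals, in the naive, 24 h and 3 d library. Gfap stands at 5.60%, 22.5% and 7.001%, whereas Cryab at 17.6%, 21.1% and 14.2% has overlapping intervals in the naive library and at 24 h.

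Across the 6 classes of which each library held at least 50 cells, only Gfap was highest in astrocytes in all 3 libraries, with the next class at 8.07 CPM in the naive library (pericytes), 1.66 CPM at 24 h (oligodendrocytes) and 7.63 CPM at 3 d (neuron-like cells). The astrocyte interval was above that of the next class in each library. These values of other classes rested on few cells. The pericyte value came from 6 UMIs in 1 cell, and the neuron-like value from 24 UMIs, of which 18 were in a single cell, against 7 in the naive library, and Gfap was detected in 1.37% of those cells without thinning. Most other members were highest in cells of the vessel wall, in oligodendrocytes or in microglia.

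Osmr, S1pr3 and Steap4 were mainly genes of pericytes, the contractile cells that wrap capillaries, and Osmr of endothelial cells too. S1pr3 was at 432, 499 and 460 CPM in pericytes of the naive, 24 h and 3 d library and was detected in 75.4%, 69.0% and 74.9% of them after thinning, while no other class was above 4.54 CPM in any library. Steap4 was at 39.0, 65.04 and 45.6 CPM in pericytes and had at most 1 UMI in any other of the 6 classes. Its log2 ratio in pericytes was 0.74 at 24 h (0.09 to 1.42). Osmr was at 80.7, 178 and 125 CPM in pericytes and at 72.5, 150 and 137 CPM in endothelial cells. In both vessel classes Osmr was thus higher at 24 h, with log2 ratios of 1.14 (0.72 to 1.59) in pericytes and 1.05 (0.69 to 1.41) in endothelial cells, and at 3 d the ratios were 0.63 (0.20 to 1.07) and 0.92 (0.60 to 1.25), with intervals still above 0. In astrocytes, Osmr could not be told from the naive level by then.

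Vim was highest in endothelial cells, at 665 CPM in the naive library, 661 CPM at 24 h and 420 CPM at 3 d, then in neuron-like cells at 147, 131 and 119 CPM and in pericytes at 120, 99.5 and 65.8 CPM. In none of these classes was Vim higher at 24 h, where the log2 ratios were -0.01, -0.17 and -0.27. In microglia it was, from 3.77 CPM (29 UMIs) to 21.03 CPM (54 UMIs), a log2 ratio of 2.48 (1.80 to 3.19), with 3.79 CPM at 3 d. However, 28 of the 54 UMIs were in a single cell, and at equal depth Vim was detected in 1.06% (0.51 to 1.93) of naive microglia and 2.78% (1.12 to 5.64) at 24 h, with overlapping intervals. Cryab was highest by far in oligodendrocytes, at 2977, 1855 and 1644 CPM, with log2 ratios of -0.68 (-0.75 to -0.62) at 24 h and -0.86 (-0.90 to -0.81) at 3 d. Its course there was opposite to that in astrocytes at 24 h, and in pericytes it was at 148, 140 and 101 CPM. Stat3 was highest in microglia at 155, 179 and 203 CPM and next in endothelial cells at 99.7, 151 and 188 CPM, with overlapping intervals after TIA. In endothelial cells its log2 ratio was 0.59 at 24 h and 0.92 (0.65 to 1.20) at 3 d. Endothelial Stat3 had its highest value at 3 d, but its intervals at 24 h (130.1 to 173.4 CPM) and 3 d (172.5 to 205.5 CPM) overlapped. In astrocytes, Stat3 at 3 d lay between the naive and the 24 h level. For Cd44 the intervals of astrocytes, endothelial cells and pericytes overlapped in each library. Cd44 in endothelial cells was at 15.8, 23.4 and 7.68 CPM, the same order of the libraries as in astrocytes. Its log2 ratio there at 24 h was 0.57, with an interval that held 0 (-0.27 to 1.43). Microglia had the same order, at 7.01, 10.1 and 6.45 CPM, with ratios whose intervals held 0 at both times.

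Timp1 had few UMIs in any class. In the naive library, 18 of its 23 UMIs were in neuron-like cells (3.27 CPM, 1.94 to 5.17), which had 4 UMIs at 24 h (4.16 CPM) and 8 at 3 d (2.54 CPM). Of the 70 Timp1 UMIs in all cells that passed the filter at 24 h, 62.9% were in a small cluster led by Ecrg4 and hemoglobin genes, where 4 of 22 cells held 44 UMIs (226 CPM). The same cluster held 2 of 23 UMIs in the naive library and 12 of 28 at 3 d. Pericytes had 0, 9 and 0 Timp1 UMIs in the naive, 24 h and 3 d library.

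**Figure D4:**
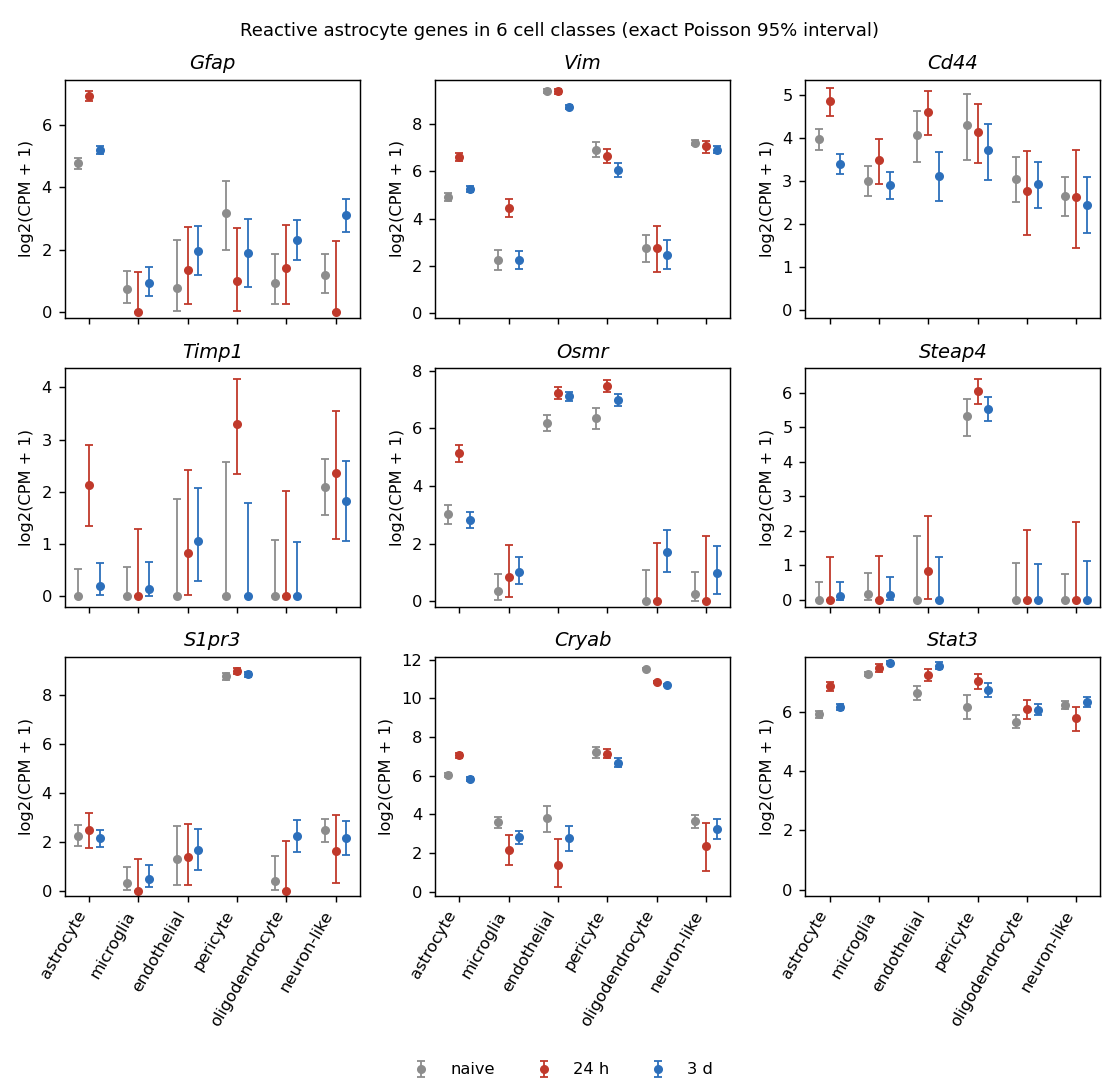
Level of each member in the 6 classes that reached 50 cells in each of the libraries, as log2(CPM + 1) of summed UMIs with exact Poisson 95% intervals, for the naive, 24 h and 3 d library; each gene has its own scale. Gfap is highest in astrocytes, S1pr3 and Steap4 stand out in pericytes, and Cryab in oligodendrocytes is at 2977 CPM in the naive library.

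The ligands of the interleukin-6 family were looked up next to the receptor and the factor. Oncostatin M (Osm), the ligand of the Osmr chain, was found mainly in microglia, at 23.9 CPM in the naive library (184 UMIs), 30.0 CPM at 24 h (77 UMIs) and 18.9 CPM at 3 d (185 UMIs). Its log2 ratio there was 0.33 at 24 h (-0.08 to 0.72) and -0.34 at 3 d (-0.64 to -0.03), and astrocytes had 5, 0 and 3 UMIs. Microglia also held most UMIs of Il6 (12.98, 10.9 and 12.2 CPM) and Clcf1 (18.7, 14.4 and 20.99 CPM), whereas Lif was nearly confined to astrocytes among the 6 classes, with 22, 12 and 21 UMIs there and at most 1 in any other class and library. None of these ligands was past the 2-fold limit in the class that held most of it, and of the 2 ligand genes with enough UMIs in astrocytes, Lif and Ctf1, 0 were past it at either time.

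Of the 7 receptor genes of the family, 6 had enough UMIs in astrocytes at 24 h, of which Osmr was past the limit upward and Il6ra, the receptor of interleukin-6 itself, downward. In astrocytes Il6ra was at 11.3, 3.77 and 6.14 CPM in the naive, 24 h and 3 d library (93, 10 and 81 UMIs), with log2 ratios of -1.58 (-2.69 to -0.64) and -0.88 (-1.33 to -0.43). In microglia it was at 342, 383 and 402 CPM, and the microglia markers in astrocytes were at 3.32%, 1.41% and 2.49% of their level in microglia, so that they moved together with Il6ra; the part of microglial RNA in its level was not tested. The shared chain Il6st was at 45.6, 41.5 and 42.2 CPM and had ratios whose intervals held 0, and the leukemia inhibitory factor receptor gene Lifr was at 84.3, 127 and 107 CPM, a log2 ratio of 0.60 (0.40 to 0.79) at 24 h. The higher Osmr level at 24 h was thus not shared by the family's other receptor genes to that extent, and at 3 d 0 of 7 were past the limit. Of the 8 JAK and STAT genes, Stat3 included, 0 were past the limit in either direction at either time, and Jak2 was at 28.6, 38.1 and 33.4 CPM. Of the 6 STAT3 feedback and target genes with enough UMIs at 24 h, 1 was higher (Myc, log2 ratio 1.05) and 2 were lower, Socs3 and Junb, the latter also on the list of 13 dissociation genes below, of which 7 were lower. Socs3, the feedback inhibitor that STAT3 induces, was at 7.28 CPM in naive astrocytes (60 UMIs), 2.64 CPM at 24 h (7 UMIs) and 3.79 CPM at 3 d (50 UMIs), log2 ratios of -1.46 (-2.84 to -0.33) and -0.94 (-1.51 to -0.38). In microglia Socs3 was at 167, 170 and 170 CPM, and the part of microglial RNA was not tested here either. At 3 d, 0 were higher and 1 of 8 was lower (Il4ra, -1.05).

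Other genes with the same roles as the members were counted in astrocytes in the same way, against the shares of all genes given above. Of the other pan-reactive genes, the 2 with enough UMIs at 24 h were both higher. The minimum of UMIs can be decided by the change itself, so it partly set this count. Hspb1 (19 UMIs in the naive library, 37 at 24 h) reached it through its 24 h UMIs. Cp (23 and 2 UMIs) did not reach it at 24 h, where its log2 ratio was -1.89 (-5.02 to 0.13). Serpina3n, a secreted protease inhibitor, was at 3.40, 43.4 and 6.14 CPM (28, 115 and 81 UMIs), log2 ratios of 3.67 (3.07 to 4.33) and 0.85 (0.22 to 1.53), and Hspb1, a small heat shock protein like Cryab, at 2.30, 14.0 and 2.20 CPM, a ratio of 2.60 (1.76 to 3.48) at 24 h. At 3 d, 0 of 3 were past the limit. Small heat shock genes were higher for 3 of 4 at 24 h, Cryab, Hspb1 and Hspb6 (1.44), and for 0 of 4 at 3 d. The minimum partly set this count too, since Hspb1 reached it through its 24 h UMIs. Hspb6 had 23 UMIs in the naive library and 20 at 24 h. Of 6 intermediate filament and linker genes, Gfap and Vim were past the limit at 24 h and 0 at 3 d; the lamin gene Lmna was at 9.58, 18.1 and 12.9 CPM, a log2 ratio of 0.92 at 24 h.

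Gene lists that divide reactive astrocytes into A1 and A2 types were counted too. Of 8 A1-type genes, 2 were higher and 0 lower at each time, Fkbp5 and Fbln5. The log2 ratios were 4.59 (4.10 to 5.12) and 3.03 for Fkbp5 and 2.41 and 1.64 for Fbln5. At 24 h, Fbln5 (17 UMIs in the naive library, 29 at 24 h) reached the minimum only through its higher count there. The median of the list was -0.17 at 24 h and 0.52 at 3 d, where 6 of 8 genes were above 0. Fkbp5, a chaperone of the glucocorticoid receptor, is known as a gene that glucocorticoids induce. Only 2 of 12 A2-type genes had enough UMIs, of which 0 were higher and 1 was lower at 24 h (Cd14, 54, 2 and 81 UMIs), and 0 were past the limit at 3 d. The other, S100a10, was at 31.4, 50.5 and 19.6 CPM, with log2 ratios of 0.69 (0.37 to 0.99) and -0.68 (-0.94 to -0.43). Summed over the 12 genes, the level was 42.2, 63.7 and 31.1 CPM in the naive, 24 h and 3 d library. Microglia markers in astrocytes were also lowest at 24 h, and the part of microglial RNA in the Cd14 level was not tested.

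Among partners of single members, metalloproteinases and their inhibitors had 1 of 7 genes higher at 24 h, the secreted protease Adamts1 (18.3, 75.0 and 9.93 CPM, log2 ratio 2.03, 1.72 to 2.35), and 0 of 7 at 3 d. Timp4, the inhibitor gene typical of astrocytes, was at 196, 319 and 204 CPM. Of the 7 sphingosine-1-phosphate genes, 5 CD44 ligands and partners and 2 STEAP genes with enough UMIs, 0 were past the limit at either time. S1pr1, the main sphingosine-1-phosphate receptor gene of astrocytes, was at 1191, 895 and 1002 CPM, and the CD44 linker gene Ezr at 187, 279 and 228 CPM.

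Of 9 genes for the homeostatic work of astrocytes, 1 was past the limit at 24 h, the connexin gene Gjb6 (282, 570 and 432 CPM, log2 ratio 1.02), and 0 at 3 d. Aqp4 was at 739, 537 and 561 CPM, with log2 ratios of -0.46 and -0.40. Genes that tell regional kinds of astrocytes apart were counted because Gfap is known to be high in fibrous and pial astrocytes. Of 5 fibrous or pial genes, 1 was higher at 24 h (Id1, 1.31) and 1 was lower at 3 d (Fabp7, -1.18). At 24 h, 2 of the 5 were above 0 and 3 below, Fabp7 (-0.78), Thbs4 (-0.74) and Ntm (-0.21). The median of the list was -0.21 at 24 h and 0.12 at 3 d. Myoc of the same list, a pial marker, was just short of enough UMIs, with 1 UMI in the naive library, 27 at 24 h and 13 at 3 d (0.121, 10.2 and 0.985 CPM), and so was highest when Gfap was. Of 4 genes of astrocytes outside the telencephalon, Agt was higher at both times (68.3, 262 and 138 CPM, log2 ratios 1.94 and 1.01), and of 3 telencephalic genes 0 were past the limit. The part of the sampled region in the members' levels was not tested.

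Markers of other cell types and genes that respond to tissue handling also differed between the libraries within astrocytes, and their part in the members' levels was not tested. The microglia markers summed to 1055, 416 and 712 CPM in naive, 24 h and 3 d astrocytes, so that they were lowest at 24 h. The erythrocyte markers summed to 869, 24.9 and 55.9 CPM, with Hbb-bs at 539 CPM in the naive library. The 7 choroid plexus markers summed to 183, 10.2 and 10.4 CPM, with Ttr at 173 CPM in the naive library, while Folr1 and Kl were at 0 at both later times and Aqp1 and Clic6 at 24 h. The 9 endothelial markers summed to 20.3, 14.0 and 30.0 CPM, with Flt1 the most abundant at 3 d (6.67 CPM) and Cdh5 at 0 at 24 h. The 9 pericyte markers summed to 144, 147 and 177 CPM, most of it Pdgfrb (102, 101 and 116 CPM), with Higd1b at 0 in the naive library and at 24 h and Abcc9 at 24 h. The 9 oligodendrocyte markers, led by Cnp, summed to 157, 89.7 and 139 CPM, lowest at 24 h. The 7 fibroblast markers summed to 15.6, 24.9 and 23.9 CPM, led by Col1a2 (8.97, 18.1 and 15.99 CPM), and so were above the naive sum at both times; Lum was at 0 in all 3 libraries, Dcn and Col3a1 in the naive library and at 24 h, and Pdgfra and Slc6a13 at 24 h. Of 13 genes that dissociation of tissue is known to induce, 7 were lower and 1 was higher at 24 h, with a median log2 ratio of -1.08, and 3 were lower and 0 higher at 3 d, with a median of -0.79; Atf3 (-4.00) and Zfp36 (-2.08) were the lowest at 24 h. In astrocytes with at most 0.1% of their UMIs from markers of the other classes, a limit chosen after the data had been seen, Gfap had a log2 ratio of 2.17 and Osmr of 2.21 at 24 h, and 6 of 7 members were past the limit, beside 3.55% higher and 4.57% lower of all genes in the same cells.

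The genes most like a member over the 18 points formed by 6 classes and 3 libraries, by Pearson correlation of log2(CPM + 1) among 15108 genes, are given for the 6 members with at least 100 UMIs in the astrocytes of the 3 libraries. The points share libraries and depth, and no p-value is given. For Gfap these were Agt (r = 0.95), Fgfr3 (0.94) and Etnppl (0.93), for Vim Tsc22d1 (0.96), Fbxl7 and Ube2v2, for Osmr Afap1l2 (0.98), Fzd6 and Lamb2, for Cryab Dbndd2 (0.96), Larp6 and Gas7, for Stat3 Zc3h7a (0.93), Mob1a and Klf6, and for Cd44 Rheb (0.87), Pex6 and Acadl. Agt was the nearest to Gfap and in astrocytes was also highest at 24 h, whereas Etnppl was at 52.5, 184 and 238 CPM in the naive, 24 h and 3 d library and so was highest at 3 d.

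The 9 members lie on 7 chromosomes and share no locus. On GRCm38 (GENCODE M21, all protein-coding), Gfap is at chr11:102887336-102900912 on the minus strand and Stat3 at chr11:100885098-100939540 on the minus strand, Vim at chr2:13573927-13582826 on the plus strand and Cd44 at chr2:102811141-102901665 on the minus strand. Osmr is at chr15:6813577-6874969 (minus), S1pr3 at chr13:51408639-51422797 (plus), Cryab at chr9:50751325-50756636 (plus), Steap4 at chr5:7960457-7982213 (plus) and Timp1 at chrX:20870166-20874735 (plus). No other gene overlaps any of them on the same strand.

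Since STAT3 is a factor of this response, promoters of 300 bases (250 before and 50 after the start of the gene in RefSeq, GRCm38.p6), which were on hand for 8 of the 9 members, were searched on both strands for the letters TTCNNNGAA, to which STAT factors bind. They were present in 2 of the 8, Gfap and Steap4, and in 8.30% of 32851 promoters. The letters TGANTCA, bound by AP-1 factors, were present in 1 of the 8, Osmr, and in 7.81% of all promoters. A match is a description of the sequence and not a site shown to be used: Gfap was 4.65-fold higher at 24 h, while Steap4 was not detected in astrocytes at that time. The promoters with the STAT letters are shown 5′ to 3′ with the letters in capitals. That of Gfap (chr11:102897151-102897450, minus strand) lies inside the gene as GENCODE annotates it, with the match beginning 2 bases before the RefSeq start. That of Steap4 (chr5:7960222-7960521, plus strand) runs over the annotated start of the gene, with the match beginning 116 bases before the RefSeq start.
Gfap: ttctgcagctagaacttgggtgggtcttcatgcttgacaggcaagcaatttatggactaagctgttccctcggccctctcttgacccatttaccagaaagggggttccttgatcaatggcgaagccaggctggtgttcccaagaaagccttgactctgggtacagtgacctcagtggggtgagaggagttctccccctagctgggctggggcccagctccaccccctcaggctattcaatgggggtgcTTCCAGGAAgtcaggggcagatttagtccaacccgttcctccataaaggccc
Steap4: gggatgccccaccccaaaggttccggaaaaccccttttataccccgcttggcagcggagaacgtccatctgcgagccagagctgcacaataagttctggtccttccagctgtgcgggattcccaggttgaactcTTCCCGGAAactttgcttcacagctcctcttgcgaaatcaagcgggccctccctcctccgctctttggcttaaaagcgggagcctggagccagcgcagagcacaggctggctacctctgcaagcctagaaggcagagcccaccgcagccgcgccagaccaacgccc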

How the data were processed

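UMI counts per gene and cell, as deposited by the authors, were used without change; per the study's methods the authors aligned reads to mm10 with GENCODE vM23 and called cells with CellRanger. The members and gene lists were chosen with earlier results of these data known. Cells with at least 500 genes and at most 7% mitochondrial UMIs and genes in at least 3 cells were kept, log-normalized and clustered with Seurat 5.3.0 in R 4.3.3 on 2000 vst features less 45 genes of the set and of related lists, with UMI number and mitochondrial share regressed out, 20 principal components and resolution 0.5. Clusters were named from markers of 18 cell types. A name needed at least 3 markers detected in at least 10% of cells and at least 2-fold above the other clusters. Clusters whose 10 leading genes pointed to another type stayed unnamed. A cluster of 506 cells was left unnamed for its low depth (median 2102.5 UMIs). UMIs were summed per class and library. Ratios of CPM have exact conditional binomial intervals, levels exact Poisson and shares exact Clopper-Pearson intervals, all at 95% (scipy 1.17.1). A library with 0 UMIs was set to a floor of 3 UMIs. Steps were tested on simulated data. All members are named; of each list, up to 4 genes past the 2-fold limit, genes of the interleukin-6 pathway, and for likeness the 3 highest correlations of genes with at least 100 UMIs; the few others named, such as Timp4, Aqp4, S1pr1, Ezr and Lmna, were chosen after their values were seen, as was the look at markers and other members in the 5 highest cells; leaving those cells out of the ratios against naive was a setting listed at the outset. Doublets were kept; Scrublet in scanpy 1.11.5 called 286 of 11928 cells (2.40%), 26, 1 and 33 of them astrocytes of the naive, 24 h and 3 d library. The alternatives changed the cell filter, doublets, clustering, choice of astrocytes, scaling, minimum and limit.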

Additional observations from a re-analysis of the deposited data

Results flagged for a closer look

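Several members had ratios of opposite direction in different classes or at different times, each with an interval for counting error that leaves out 0; none of these differences was tested, since there was 1 library per group. Vim at 3 d had a log2 ratio to the naive library of 0.36 in astrocytes, but of -0.66 (-0.79 to -0.53) in endothelial cells, -0.30 (-0.48 to -0.12) in neuron-like cells and -0.86 (-1.29 to -0.43) in pericytes. Of the 492 Vim UMIs in astrocytes at 3 d, 49 were in a single cell. The astrocyte ratio stayed above 0 in the 11 other settings listed at the outset that gave it, from 0.17 to 0.91. Cryab at 24 h was at 1.03 in astrocytes, and at -0.68 (-0.75 to -0.62) in oligodendrocytes, -1.65 (-2.83 to -0.66) in microglia and -1.46 (-3.38 to -0.03) in neuron-like cells, where it was at 11.04 and 3.50 CPM in microglia and at 11.4 and 4.16 CPM in neuron-like cells in the naive and 24 h library. The ratio of Cryab was thus below 0 both in oligodendrocytes, which hold most of it, and in classes with few UMIs of it, and the part of free oligodendrocyte RNA was not tested. Stat3 at 24 h was at -0.45 (-0.90 to -0.03) in neuron-like cells against 0.96 in astrocytes. Within astrocytes, Cd44 was at 0.93 at 24 h and -0.63 (-1.004 to -0.26) at 3 d, and Cryab at 1.03 and -0.20 (-0.37 to -0.04).

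In cells outside the 6 compared classes, members differed from the naive library in both directions. In the Agt-led cluster, Gfap had log2 ratios of 2.63 at 24 h and 2.52 at 3 d, and Stat3 one of 1.21 at 24 h. In the cluster led by Ecrg4 and hemoglobin genes, with 99, 22 and 101 cells in the naive, 24 h and 3 d library, the log2 ratio at 24 h was 1.38 (0.52 to 2.23) for Gfap, 6.29 (4.35 to 9.38) for Timp1 and 2.01 (1.26 to 2.77) for Stat3, and at 3 d 1.75 (0.44 to 3.31) for Cd44. Cryab in that cluster was at 568 CPM in the naive library, 92.5 CPM at 24 h and 86.3 CPM at 3 d, log2 ratios of -2.62 (-3.39 to -1.94) and -2.72 (-3.08 to -2.37). In neuronal progenitors Cryab was at -1.35 (-2.30 to -0.53) and -2.96 (-3.73 to -2.26), and Vim at -0.40 (-0.65 to -0.15) and -0.66 (-0.81 to -0.51). Of the 34 Stat3 UMIs at 24 h in the cluster led by Ecrg4, 25 were in a single cell. Cd44 at 24 h was at 1.43 (0.25 to 2.54) in neuronal progenitors, from 19 and 12 UMIs, and at 2.18 (1.56 to 2.80) in an unnamed cluster led by Pf4, H2-Aa and F13a1, where it was at 16.3 CPM in the naive library and 73.9 CPM at 24 h and 35 of the 52 UMIs were in a single cell. These cells are few, and whether the values hold for the cell types was not tested.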

How the results depend on the processing

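When the cell filter, clustering, choice of astrocytes, scaling and limits were varied, Gfap, Vim and Osmr stayed past the 2-fold limit at 24 h wherever they had enough UMIs, with log2 ratios of 1.82 to 2.33 for Osmr and 1.29 to 2.02 for Vim in the settings listed at the outset; in single astrocyte clusters, added later, Osmr was at 2.60 and 1.38 and Stat3 at 1.04 and 0.76. Astrocytes with at most 1 UMI of other classes' markers numbered only 13, 9 and 51; there Gfap was at -1.56 from 5 UMIs at 24 h, and a single member had enough UMIs at each time, which gave medians of 4.09 at 24 h (Cryab, the 1 member counted) and 0.93 at 3 d (Gfap). In the former settings Stat3 (0.87 to 1.03) and Cryab moved over the limit with small changes; of the 12 that gave it a ratio, Cryab was over it in only 4, those with only cells past both limits of the filter left out, a mitochondrial limit of 5%, at most 1 UMI of other classes' markers and median-ratio scaling. The count at 24 h ranged from 1 to 6: it was 1 of 1 with at most 1 UMI of other classes' markers, where 11.4% of all genes were higher and 11.2% lower, 6 when only cells past both limits were left out (3.02% and 6.22%) and 6 of 7 at a limit of 1.5-fold (9.77% and 14.1%). That at 3 d was 0 except at a limit of 1.5-fold, where it was 1 (Cd44, lower), beside 5.02% of all genes higher and 4.10% lower. The median at 24 h was 1.28 when only cells past both limits of the filter were left out. It was 1.27 at resolution 0.2 and 1.38 with a minimum of 100 UMIs. In cluster 1 alone, chosen after seeing the data, it was 1.55. The lowest median at 24 h was 0.87 in the settings listed at the outset and 0.99 in those added later. The cause of these shifts was not tested. With the mean of the cells' CPM, 2.07% of genes were higher and 0.87% lower at 3 d. The share of astrocytes with any member was 42.1%, 65.2% and 43.7% in the naive, 24 h and 3 d library, 17.7%, 28.5% and 19.2% after thinning to 1000 UMIs and 78.0%, 85.8% and 76.7% without thinning. The 219 astrocytes at 24 h limit genes with few UMIs such as Timp1, Steap4 and S1pr3. No paired analysis was possible because each group has 1 library, and for the same reason no replicate could be left out.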
